A study of Mus musculus with 3 samples.

Results

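The genes described here are 40 genes of sugar metabolism in cultured mouse mesenchymal progenitors. They cover glucose uptake and the steps of glycolysis, the fate of pyruvate as lactate or mitochondrial fuel, and the making and breaking of glycogen. They were taken by name from knowledge of the pathway, and each gene was read from 1 probe set, the brightest on average among those annotated to that gene alone. Of the 40 genes, 35 had such a probe set, of 17097 genes in all, and 23 of the 35 reached an intensity of 64 on at least 1 array and are called measured, against 2738 measured genes in the whole table. Gpi1, Pfkfb1, Pgam1, Eno1 and Dld had no probe set annotated to 1 gene and were not analysed here.

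The arrays hold bone marrow cells of 8-week-old mice of strain C56Bl/6, labelled PaS+ mesenchymal progenitors, stromal cells that can give rise to bone, fat and cartilage. They comprise 1 array of cells given a lentiviral short hairpin RNA against HIF-1α (shHIF-1a), 1 of cells given one against HIF-2α (shHIF-2a) and 1 of cells given a control hairpin (shCTR). All cells were grown in 1% oxygen for 7 days, the control cells included, so no array shows these genes in normal oxygen, and RNA was taken 4 days after transduction. The labels name no hairpin sequence, second hairpin, animal number or second culture, so the differences below have no replicate check and no test was run. In such bulk samples fewer cells of a type and less RNA per cell cannot be told apart.

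Glycolysis splits glucose into pyruvate and yields ATP without oxygen. In low oxygen, cells turn pyruvate into lactate and export it, while pyruvate dehydrogenase kinases hold back its use as mitochondrial fuel. The hypoxia-inducible factors (HIFs) are transcription factors whose alpha subunits, HIF-1α and HIF-2α, are degraded when oxygen is plentiful. HIF-1 is known as a main activator of glycolytic genes in low oxygen, through the core motif of the hypoxia response element in their regulatory DNA.

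The targeted genes were read as an intended check of the labels. Hif1a stood at an intensity of 332 under the shHIF-1a label and 332 under the shHIF-2a label, against 352 on the control array, so its probe set did not set the hairpins apart. Epas1, which encodes HIF-2α, read 9.44 under the shHIF-1a label and 3.21 under the shHIF-2a label, against 5.09 on the control array, close to the highest nonspecific control probe set at 3.47. The labels are therefore not checked by their targets, and below each array is called by its label alone. Of 12 mesenchymal progenitor markers 11 had a probe set and all 11 lay above 3.47 on every array, whereas no erythroid marker with a probe set (of 3) did on any array. Of 6 haematopoietic markers with a probe set Cd68 alone did, at 7.24 under the shHIF-2a label, and of 5 endothelial and 5 skeletal muscle markers 1 each did, Egfl7 and Acta1. The 12 bacterial and phage hybridisation controls above 3.47 were dimmer under the shHIF-2a label than on the control array, by a median of −1.02 on the log2 scale, against 0.08 under the shHIF-1a label. Their part in the differences below was not tested. The 11 mesenchymal progenitor markers summed to 1675 under the shHIF-1a label and 1456 under the shHIF-2a label, against 1635 on the control array. Single markers differed in both directions. Cxcl12 read 178 and 72.3, against 250, and Pdgfra read 51.6 and 47.9, against 38.2, whereas Itgb1 and Kitl were equal on every array. The part of these markers in the differences was not tested either.

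Promoters are shown for the 5 members that the results turn on most. They are those of Hk2, Pfkfb3, Aldoc and Slc16a1, whose values differed between arrays, and of Ldha, whose summarised value was the same on each array. Each line holds the 250 bases before the 5′-most annotated start, from RefSeq (GRCm38.p6), read 5′ to 3′ on the gene's strand, and capitals mark ACGTG or GCGTG, the core of the hypoxia response element, on either strand.
Hk2 (chr6:82774455-82774704, minus strand): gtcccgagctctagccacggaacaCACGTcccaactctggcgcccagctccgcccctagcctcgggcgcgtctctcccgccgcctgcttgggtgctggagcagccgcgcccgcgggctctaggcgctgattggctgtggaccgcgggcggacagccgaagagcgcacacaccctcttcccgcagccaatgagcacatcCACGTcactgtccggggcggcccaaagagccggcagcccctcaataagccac
Pfkfb3 (chr2:11553930-11554179, minus strand): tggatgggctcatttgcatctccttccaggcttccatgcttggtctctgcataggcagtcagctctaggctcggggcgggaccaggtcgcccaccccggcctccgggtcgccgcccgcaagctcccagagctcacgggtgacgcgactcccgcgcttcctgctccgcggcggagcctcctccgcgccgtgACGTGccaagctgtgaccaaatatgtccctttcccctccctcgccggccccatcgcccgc
Aldoc (chr11:78322823-78323072, plus strand): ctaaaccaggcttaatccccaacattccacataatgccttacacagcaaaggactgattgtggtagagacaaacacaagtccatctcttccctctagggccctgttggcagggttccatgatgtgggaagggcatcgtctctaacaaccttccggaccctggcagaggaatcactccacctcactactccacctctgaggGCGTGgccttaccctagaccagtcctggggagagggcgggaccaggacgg
Ldha (chr7:46845554-46845803, plus strand): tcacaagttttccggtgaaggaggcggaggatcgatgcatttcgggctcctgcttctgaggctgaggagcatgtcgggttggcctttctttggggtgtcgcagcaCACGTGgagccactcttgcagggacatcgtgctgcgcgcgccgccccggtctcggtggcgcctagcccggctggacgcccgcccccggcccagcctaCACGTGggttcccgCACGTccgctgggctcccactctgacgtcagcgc
Slc16a1 (chr3:104638414-104638663, plus strand): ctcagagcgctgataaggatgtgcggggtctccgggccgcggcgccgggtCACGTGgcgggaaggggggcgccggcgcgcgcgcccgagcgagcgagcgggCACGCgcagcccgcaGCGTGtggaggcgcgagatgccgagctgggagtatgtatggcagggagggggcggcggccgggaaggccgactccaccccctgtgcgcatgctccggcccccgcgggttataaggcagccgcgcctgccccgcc
Where 2 matches overlap as CACGTG, which is also an E-box, both were counted. Ldha held 5 matches in this window, Slc16a1 4, Hk2 2, and Pfkfb3 and Aldoc 1 each. Of the 34 members with both a probe set and a promoter entry, 26 (76.5%) held at least 1 match, and 17 of the 23 measured members (73.9%) did, against 38.6% of the windows of all 27025 genes. The windows of all genes include genes that were not measured here, and no share was counted over the measured genes alone. Whether the members differ from other measured genes in this share was therefore not tested. A match is a description of the letters, and no binding was measured here. Aldoa, Tpi1, Pkm, Hk1, Gbe1 and Gys1 were the measured members with no match in this window.

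Under the shHIF-1a label most members of the path from glucose to pyruvate read slightly below control. Of 12 measured genes from glucose uptake to pyruvate kinase, 11 were below control and Tpi1 was equal, with a median log2 difference of −0.12. Over all 23 measured members 14 were below control (60.9%), 3 above and 6 equal, against 25.7% below, 51.7% above and 22.6% equal among all 2738 measured genes. The median of the 23 was −0.06, beside 0.01 for all measured genes. At least 1.2-fold lower, a difference of 0.26 on the log2 scale, were 4 members (Hk2, Pfkp, Pfkfb3 and Aldoc), or 17.4%, against a background of 1.86%. No member was at least 1.2-fold higher, against 9.86% of measured genes, and none differed 2-fold in either direction, against 0% lower and 1.06% higher. After cyclic loess scaling the same threshold split the background into 71 lower and 202 higher genes in place of 51 and 270, and 4 members were lower. It put 52.7% of all measured genes below control, 18 of the 23 members (78.3%), and 10 of the 12 genes from uptake to pyruvate kinase, with Pgk1 and Tpi1 above it. With 16 added before log2, 2 members stayed past 1.2-fold, Hk2 and Aldoc.

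Under the shHIF-2a label 13 of the 23 measured members were below control (56.5%), 4 above and 6 equal, against 30.6% below, 52.7% above and 16.6% equal among all measured genes. The median was −0.04, beside 0.02 for all measured genes. At least 1.2-fold lower were 4 members (Pfkfb3, Aldoc, Slc16a1 and Pygl), or 17.4%, against 9.39% of measured genes, and 1 member, Pdk3, was at least 1.2-fold higher, against 18.3%. Pdk3 reached 64 on the shHIF-2a array alone, so it counts as measured only through the array where it read higher. No member differed 2-fold, against 0.84% lower and 1.68% higher. Cyclic loess split the background into 314 lower and 368 higher genes in place of 257 and 501, and Pdk3 then fell short of 1.2-fold. It put 51.2% of all measured genes below control, and 17 of the 23 members (73.9%). The comparisons of both hairpins with control share that control array, so members that resemble each other in both are not independent observations.

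Set directly against each other, the hairpin arrays differed little over the members as a group. Under the shHIF-2a label 6 of 23 members were below the shHIF-1a array, 10 above and 7 equal, against 32.4% below and 44.3% above among all measured genes, with a median of 0.00 in both. The exceptions in size were Slc16a1, the 1 member at least 1.2-fold lower (background 10.6%), and Hk2, the 1 member at least 1.2-fold higher (background 10.8%). No member was past 2-fold, against 1.17% lower and 0.511% higher.

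**Figure D1:**
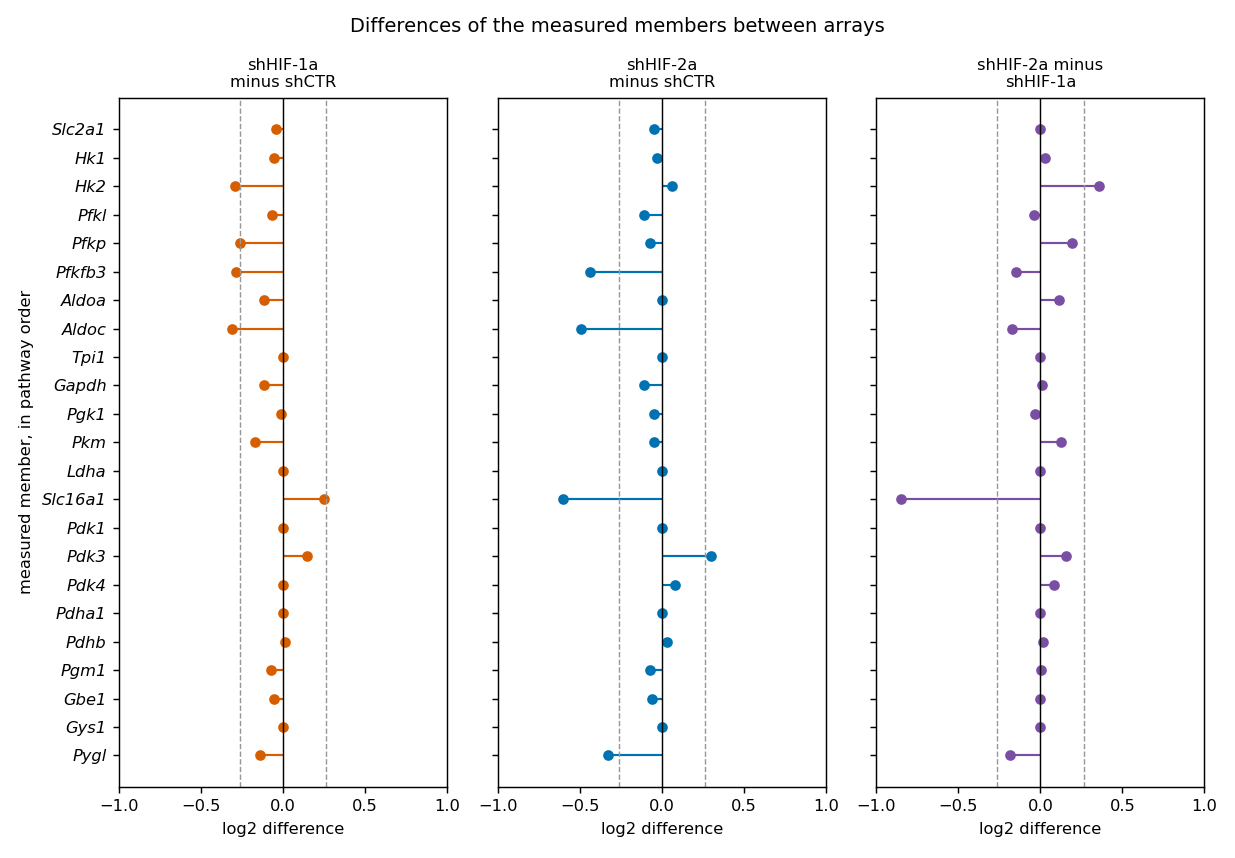
Log2 difference of each of the 23 measured members, in pathway order down the page, for the shHIF-1a array minus control, the shHIF-2a array minus control and the shHIF-2a minus the shHIF-1a array, 1 array each. Dashed lines mark 1.2-fold; Hk2, Pfkp, Pfkfb3 and Aldoc lie left of the line in the first panel, Pfkfb3, Aldoc, Slc16a1 and Pygl in the second, and Slc16a1 in the third.

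**Figure D2:**
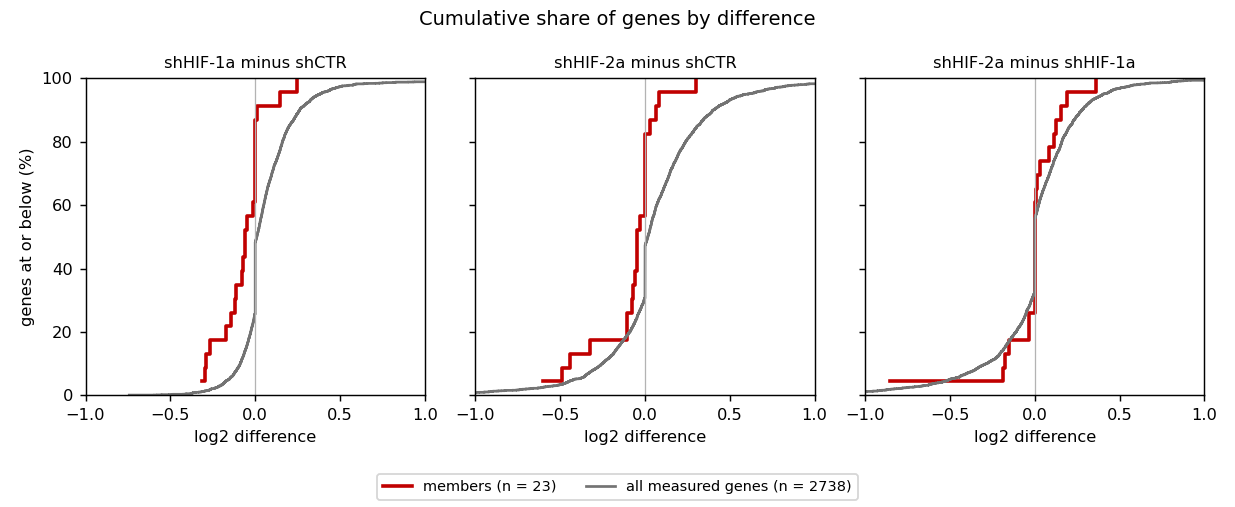
Cumulative share of genes, in percent, at or below a given log2 difference, for the 23 measured members and for all 2738 measured genes, in each comparison. In the first panel the members' curve runs left of the curve of all genes, with 60.9% against 25.7% of genes below 0, and in the third the curves cross.

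Glucose enters cells through facilitative transporters. Slc2a1, the widely expressed transporter GLUT1, read 521 under the shHIF-1a label and 521 under the shHIF-2a label, against 538 on the control array. Its other probe set of at least 64 read 285 under the shHIF-1a label and 330 under the shHIF-2a label, against 333 on the control array, so it put the shHIF-1a array lower (−0.22) than the representative probe set did (−0.05). Slc2a3, the high-affinity transporter GLUT3, stayed under 64. It read 16.1 under the shHIF-1a label and 20.4 under the shHIF-2a label, against 25.4 on the control array, with both hairpin arrays under control and the shHIF-1a array lowest, 1.58-fold under control. Among the 5520 genes that lay above 3.47 on all arrays but under 64, 0.308% were at least 1.5-fold lower under the shHIF-1a label, and the median of those genes was 0.16 above control. Under the shHIF-2a label none of the 9 members in that range was 1.5-fold lower, against 1.3% of those genes. A second Slc2a3 probe set read 7.51 under the shHIF-1a label and 9.27 under the shHIF-2a label, against 9.27 on the control array. Both of these Slc2a3 probe sets carry suffixes of probes that can match more than 1 transcript. Slc2a3 has 4 probe sets, and the others lay under 3.47 on every array. Among those others, the set without such a suffix read 1.09 under the shHIF-1a label and 1.09 under the shHIF-2a label, against 1.81 on the control array.

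Hexokinases trap glucose by phosphorylating it. Hk1, the constitutive form, read 139 under the shHIF-1a label and 142 under the shHIF-2a label, against 145 on the control array. Hk2, the inducible form and a known HIF-1 target, read 153 under the shHIF-1a label and 196 under the shHIF-2a label, against 188 on the control array. The shHIF-1a array thus stood alone below the others, 1.23-fold under control, where 35 of the 2738 measured genes had a more negative difference, while the shHIF-2a array stood 1.04-fold over control. Against the shHIF-1a array the shHIF-2a array was 1.28-fold higher for Hk2, with 170 measured genes further in that direction.

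Phosphofructokinase commits sugar to glycolysis. Its platelet-type subunit gene Pfkp read 239 under the shHIF-1a label and 273 under the shHIF-2a label, against 288 on the control array, −0.27 and −0.07 from control on the log2 scale. Its liver-type subunit gene Pfkl read 123 under the shHIF-1a label and 120 under the shHIF-2a label, against 129 on the control array. The muscle-type subunit gene Pfkm stayed under 64, with differences of 0.24 under the shHIF-1a label and −0.13 under the shHIF-2a label. The 3 subunit genes thus did not share 1 order of arrays.

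The PFKFB enzymes set the level of the sugar bisphosphate that activates phosphofructokinase. Pfkfb3, the form with the strongest kinase activity, read 103 under the shHIF-1a label and 93.0 under the shHIF-2a label, against 126 on the control array. Both hairpin arrays were below control, 1.22-fold and 1.36-fold, and 38 and 124 of the 2738 measured genes had more negative differences. Pfkfb4, another hypoxia-induced form, was dim and ran the other way, at 5.76 under the shHIF-1a label and 8.81 under the shHIF-2a label, against 4.03 on the control array. Its 2.19-fold higher reading under the shHIF-2a label lay among dim genes of which 22.3% were at least 1.5-fold higher than control there. It was also 1.53-fold higher under the shHIF-2a label than under the shHIF-1a label, where 4.17% of dim genes were past 1.5-fold. Pfkfb2 was at or under 3.47 on every array.

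Aldolase and triose phosphate isomerase split the sugar and interconvert its products. Aldoc, the brain-type aldolase, read 89.8 under the shHIF-1a label and 79.6 under the shHIF-2a label, against 112 on the control array, which was 1.24-fold and 1.40-fold below control. In these comparisons 29 and 93 measured genes had more negative differences. Aldoa, the ubiquitous aldolase, read 670 under the shHIF-1a label, against 726 on the control array, and its shHIF-2a value equalled control. Its 4 probe sets of at least 64 lay between −0.12 and 0.00 under the shHIF-1a label and between −0.05 and 0.00 under the shHIF-2a label. Tpi1, the isomerase, read 669 on all 3 arrays, and its second probe set was equal on all 3 too.

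The payoff steps harvest ATP and end in pyruvate. Gapdh, glyceraldehyde phosphate dehydrogenase, read 1039 under the shHIF-1a label and 1046 under the shHIF-2a label, against 1126 on the control array, a difference of −0.12 and −0.11. Another readout of this transcript comes from the array's own control probe sets, which the choice of members did not use. Its 3′ set read 1065 under the shHIF-1a label and 1065 under the shHIF-2a label, against 1098 on the control array, and all 3 sets (3′, middle and 5′) put both hairpin arrays below control, by 0.04 to 0.07 on the log2 scale. The ratio of the 3′ to the 5′ set, a sign of RNA integrity, was 1.19 under the shHIF-1a label and 1.19 under the shHIF-2a label, against 1.17 on the control array for Gapdh. For beta-actin it was 1.52 under the shHIF-1a label and 1.52 under the shHIF-2a label, against 1.38 on the control array. The part of this ratio in the differences was not tested. The beta-actin control sets also put both hairpin arrays below control at the 5′ end, at −0.14 and −0.14. Their middle set did so at −0.04 and −0.04, and their 3′ set was equal on all 3 arrays. Whether the Gapdh difference goes beyond that of beta-actin was not tested.

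Pgk1, phosphoglycerate kinase, read 830 under the shHIF-1a label and 810 under the shHIF-2a label, against 836 on the control array. Its second probe set put both hairpin arrays above control in place of below it, at 683 under the shHIF-1a label and 668 under the shHIF-2a label, against 568 on the control array, so the direction of Pgk1 against control is not settled by these data. That second set carries the suffix of probes that can match other transcripts. The representative sets of Aldoa, Tpi1, Gapdh and Dlat carry such suffixes too, as do the other Aldoa sets. Pkm, pyruvate kinase, read 631 under the shHIF-1a label and 689 under the shHIF-2a label, against 711 on the control array, and was 1.13-fold and 1.03-fold below control. Eno3, the muscle-type enolase, stayed under 64 and was higher on the hairpin arrays, at 42.1 under the shHIF-1a label and 50.6 under the shHIF-2a label, against 24.4 on the control array. These are 1.73-fold and 2.08-fold, in a range of intensity where 15.2% and 22.3% of genes were at least 1.5-fold higher than control. Eno2, the neuron-type enolase, was at or under 3.47 on every array.

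**Figure D3:**
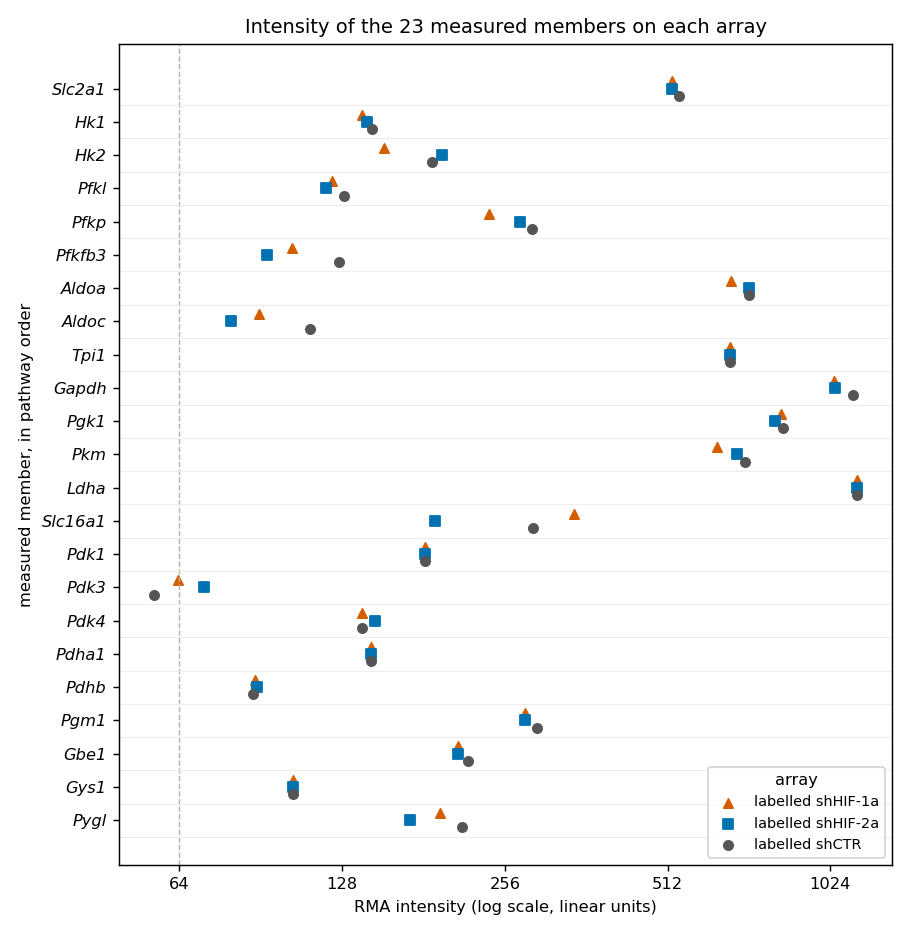
RMA intensity on a log axis (linear units) of the 23 measured members, in pathway order, on the shHIF-1a, shHIF-2a and control arrays, 1 point per array; the dashed line marks 64. Levels can be compared between arrays within a gene, not between genes; Pfkfb3, Aldoc and Pygl have both hairpin arrays left of control, and Slc16a1 has control between the hairpin arrays.

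Lactate dehydrogenase makes lactate from pyruvate, and monocarboxylate transporters move it across the membrane. Ldha, whose promoter held 5 motif matches with overlapping ones both counted, read 1149 on all 3 arrays. Ldhb, which favours the reverse reaction, stayed under 64 and differed by at most 0.02 from control on its representative probe set. Its other set, which can match other transcripts, read 15.2 under the shHIF-1a label and 18.3 under the shHIF-2a label, against 12.6 on the control array. Slc16a1, the lactate and pyruvate carrier MCT1, had the largest differences of the 23 representative probe sets under the shHIF-2a label, against control and against the shHIF-1a label. It read 344 under the shHIF-1a label and 190 under the shHIF-2a label, against 289 on the control array. The control value thus lay between the hairpin arrays. The shHIF-2a array was 1.52-fold below control, with 68 measured genes lower still, and the shHIF-1a array 1.19-fold above it. Between the hairpin arrays the difference was −0.85, or 1.80-fold, with 51 measured genes lower still. The hybridisation controls were dimmer on that array too, by a median of −1.09 against the shHIF-1a array, and their part in this difference was not tested. Of 4 smooth muscle markers with a probe set, Acta2 and Tpm2 lay above 3.47 and Myh11 and Cnn1 did not. Acta2, smooth muscle actin, had the same order as Slc16a1, at 429 under the shHIF-1a label and 233 under the shHIF-2a label, against 374 on the control array. Tpm2 had another order, at 293 under the shHIF-1a label and 280 under the shHIF-2a label, against 316 on the control array. The 4 markers summed to 725 under the shHIF-1a label and 516 under the shHIF-2a label, against 693 on the control array, and their part in the Slc16a1 difference was not tested either. Slc16a3, the lactate exporter MCT4 and a known HIF-1 target, stayed under 64, at 34.1 under the shHIF-1a label and 30.1 under the shHIF-2a label, against 38.2 on the control array.

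Measured genes that govern the use of pyruvate in mitochondria, apart from Pdk3, lay within 1.2-fold of control on their representative probe sets. How many of them lay below control depended on the scaling. As deposited, none of the 5 measured genes was below control under either hairpin label. Under the shHIF-1a label 2 were above and 3 equal, against 25.7% of measured genes below and 51.7% above. Under the shHIF-2a label 3 were above and 2 equal, against 30.6% below and 52.7% above. After cyclic loess 4 of the 5 were below control under the shHIF-1a label and 3 under the shHIF-2a label, against 52.7% and 51.2% of measured genes. Pdk1, the kinase that HIF-1 is known to induce, read 182 on all 3 arrays, although the other 2 of its 3 probe sets split, with 1 equal on all arrays and 1 at 168 under the shHIF-1a label and 160 under the shHIF-2a label, against 186 on the control array. Pdk3 read 63.6 under the shHIF-1a label and 70.9 under the shHIF-2a label, against 57.5 on the control array. It was 1.11-fold and 1.23-fold above control, and reached 64 on the shHIF-2a array alone. Pdk4, the kinase induced in fasting, read 139 under the shHIF-1a label and 147 under the shHIF-2a label, against 139 on the control array. Pdk2 was at or under 3.47 on every array.

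The pyruvate dehydrogenase complex turns pyruvate into acetyl-CoA. Pdha1, its catalytic alpha subunit, read 145 on all 3 arrays on the representative probe set, whereas its dimmer set read 66.4 under the shHIF-1a label and 75.6 under the shHIF-2a label, against 45.1 on the control array. The choice of probe set thus decides whether Pdha1 is equal between arrays or higher by 0.56 and 0.74 on the hairpin arrays. Pdhb, the beta subunit, read 88.3 under the shHIF-1a label and 89.2 under the shHIF-2a label, against 87.4 on the control array. Dlat, the acetyltransferase core, stayed under 64, with differences of 0.23 under the shHIF-1a label and 0.43 under the shHIF-2a label.

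Pcx, pyruvate carboxylase, feeds pyruvate into the citric acid cycle as oxaloacetate and was dim. It read 21.8 under the shHIF-1a label and 11.0 under the shHIF-2a label, against 11.6 on the control array. The shHIF-1a array stood alone, 1.88-fold over control, and the shHIF-2a array was 1.99-fold below the shHIF-1a array. Among genes of that range 15.2% were at least 1.5-fold higher than control under the shHIF-1a label, but 1.96% were at least 1.5-fold lower between the shHIF-2a and the shHIF-1a arrays. A control probe set for the 3′ end of pyruvate carboxylase, outside the choice of members, read 26.4 under the shHIF-1a label and 12.3 under the shHIF-2a label, against 19.6 on the control array. It gave the same order of the hairpin arrays, but placed them otherwise against control. Its differences from control were 0.43 under the shHIF-1a label and −0.68 under the shHIF-2a label, against 0.91 and −0.09 on the representative set. Which hairpin array stood further from control thus depended on the probe set. The 5′ and middle sets stayed under 3.47 on every array.

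**Figure D4:**
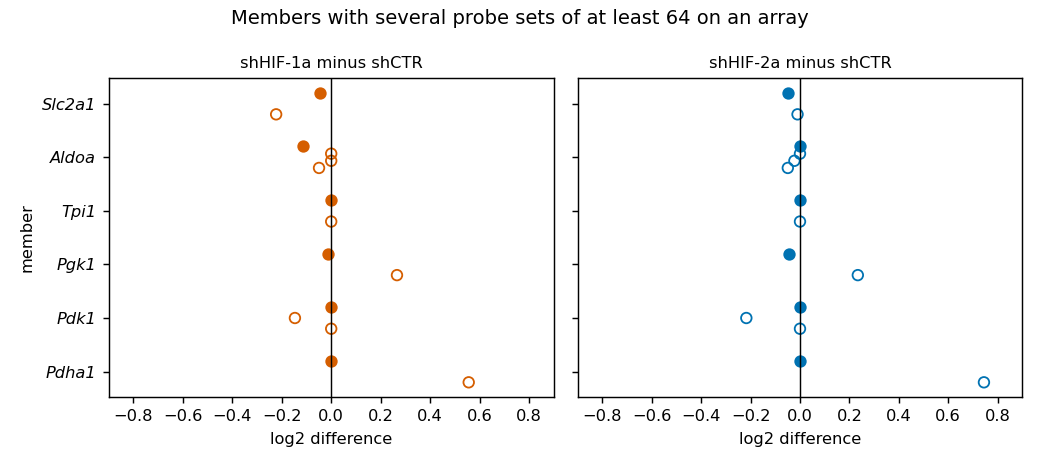
Log2 difference against control of every probe set that reached 64, for the 6 members with at least 2 of them; the left panel gives the shHIF-1a and the right panel the shHIF-2a array, filled points are the representative probe sets and open points the others. The Tpi1 points lie at 0, and the open points of Pgk1 and Pdha1 lie right of their filled points in both panels.

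Glycogen stores glucose, and hypoxic cells are known to accumulate it. Of 4 measured glycogen genes 3 were below control on each hairpin array and Gys1, glycogen synthase, was equal at 104 on all 3, while 25.7% of measured genes were below control under the shHIF-1a label and 30.6% under the shHIF-2a label. Pygl, the liver-type phosphorylase that releases glucose units, read 194 under the shHIF-1a label and 171 under the shHIF-2a label, against 214 on the control array, 1.10-fold and 1.25-fold below it. Gbe1, the branching enzyme, read 210 under the shHIF-1a label and 210 under the shHIF-2a label, against 218 on the control array. Pgm1, the phosphoglucomutase that links glycogen to glycolysis, read 279 under the shHIF-1a label and 279 under the shHIF-2a label, against 294 on the control array. Pgm2 stayed under 64 and read 21.8 on both hairpin arrays, against 19.6 on the control array.

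Equal values were common among the members. Tpi1, Ldha, Pdk1, Pdha1 and Gys1, 5 of the 23 measured members (21.7%), had the same value on all 3 arrays, against 12.1% of measured genes. An equal summarised value sets no bound on how far these transcripts differed. Brighter measured genes were less often past 1.2-fold, and the members are set beside genes of their own brightness. Of the 7 members with a mean of at least 512 none was past 1.2-fold in any comparison, where 1.58% of the 190 measured genes that bright were past it under the shHIF-1a label and 8.95% under the shHIF-2a label, and 7.89% between the hairpin arrays. Between 128 and 512, 2 of 10 members were past 1.2-fold in each comparison, against 5.71% of 1120 genes under the shHIF-1a label, 20.3% under the shHIF-2a label and 17.6% between the hairpin arrays. Slc16a1, with the largest member difference between the hairpin arrays, lies in this range. Under 128, 2 of 6 members were past it under the shHIF-1a label and 3 of 6 under the shHIF-2a label, against 17.8% and 36% of 1428 genes, and none was past it between the hairpin arrays, against 26.2%. Between probe sets of 1 gene the difference from control had a pooled SD of 0.12 under the shHIF-1a label and 0.21 under the shHIF-2a label, over 649 genes, which is a technical spread and not one between cultures. The 4 members lower under the shHIF-1a label, at −0.32 to −0.27, rest on 1 probe set of at least 64 each.

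Further genes of sugar metabolism outside the 40 came from a list of 57, of which 48 had a single-gene probe set and 12 were measured. Under the shHIF-1a label 3 of the 12 were below control, 5 above and 4 equal, with a median of 0.00, where 25.7% of all measured genes were below and 51.7% above. Under the shHIF-2a label 6 were below, 4 above and 2 equal, with a median of 0.00, where 30.6% were below and 52.7% above. Gpd2, the mitochondrial glycerol phosphate dehydrogenase, carries glycolytic electrons into the respiratory chain. It read 76.3 under the shHIF-1a label and 75.5 under the shHIF-2a label, against 55.1 on the control array. It was the 1 gene of the 12 at least 1.2-fold higher on either, against 9.86% and 18.3% of measured genes. Its control value lay under the minimum for a measured gene. Gpd2 thus counts as measured only through the hairpin arrays, where it read higher. Ppp1r3c, a subunit that targets protein phosphatase to glycogen and favours glycogen synthesis, read 99.3 under the shHIF-1a label and 68.5 under the shHIF-2a label, against 94.9 on the control array. Its shHIF-2a value was thus the low one, by −0.47 against control and −0.53 against the shHIF-1a array.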

How the data were processed

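Gene expression was measured on 3 single-colour Affymetrix arrays, 1 per shRNA, assigned from their titles; per the labels' protocols, 1 µg of RNA was biotin-labelled. The authors deposited 1 table of probe set intensities; the submitters' processing notes give RMA, with version and settings not given in the sources used here. The deposited values are linear intensities, as their range shows, up to 1747, and log2 was taken of them with no further scaling. The number of arrays limits the precision.

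Probe sets with 1 gene in the platform table (28898, of which 28689 matched RefSeq by Entrez identifier) were kept, and 551 with several genes, 15588 unlisted ones and 104 controls were left out of gene counts. The probe set with the highest mean stood for a gene, which was measured at 64 or more on at least 1 array. Counts used differences of 1.2-fold and 2-fold, set beside all measured genes, with no test and no p-value. The members and lists were chosen with earlier results of these data known, and the grouping by role and by brightness after values were seen. All measured members are named, with dim ones past 1.5-fold and, of the other pathway genes, measured ones past 1.2-fold; Pfkm, Ldhb, Slc16a3, Dlat and Pgm2 were added after their values were seen. Alternatives varied the minimum, the probe set, a value added before log2 and the scaling. Counting was tested on simulated data. Tools were Python 3.11.15, pandas 2.3.3, R 4.3.3 and limma 3.58.1 (cyclic loess).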

Additional observations from a re-analysis of the deposited data

How the results depend on the processing

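No paired analysis was possible because each shRNA has 1 array, and no replicate could be left out. The group medians against control kept their sign under all 7 alternatives, between −0.07 and −0.01 for the shHIF-1a array and between −0.06 and −0.03 for the shHIF-2a array, and the median between the hairpin arrays stayed at 0.00. With 16 added before log2, members at least 1.2-fold lower under the shHIF-1a label numbered 2 in place of 4, and members at least 1.2-fold higher under the shHIF-2a label 0 in place of 1, since an added value shrinks differences. Cyclic loess also gave 0 for the second count; the cause was not tested. More genes counted under a lower minimum. With a minimum of 16, members at least 1.2-fold higher than control were 2 under the shHIF-1a and 3 under the shHIF-2a label, and with the nonspecific level of 3.47 as minimum they were 3 and 4. Between the hairpin arrays these minimums gave 3 and 3 members lower and 3 and 4 higher, in place of 1 and 1. The mean of all probe sets of a gene gave 1 and 2 members higher than control, because Pdha1 then stood at 0.28 and 0.37, and it put Pgk1 at 0.13 under the shHIF-1a label. Slc16a1 lay between −0.86 and −0.80 in the comparison of hairpin arrays. Signal over background limits Slc2a3, Pfkfb4, Eno3 and Pcx, and equal values limit Tpi1, Ldha, Pdk1, Pdha1 and Gys1.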

Other observations

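Glycogen-targeting and liver- or muscle-type genes outside the 40 add the following values. Ppp1r3b, another phosphatase subunit that favours glycogen synthesis, stayed under 64 and is named here after its values were seen. It read 28.5 under the shHIF-1a label and 24.9 under the shHIF-2a label, against 38.2 on the control array, with differences of −0.42 and −0.62, whereas dim genes as a whole had medians of 0.16 and 0.21. Other dim glycogen genes of the list, Phka1, Phka2, Phkb, Phkg2 and Pygb, read above control on both hairpin arrays. The differences were 0.69 and 0.76 for Phka1 and 0.81 and 0.81 for Phka2, under the shHIF-1a and the shHIF-2a label. Of the 48 further genes with a probe set 15 were at or under 3.47 on every array. They include Hk3, the insulin-regulated transporter gene Slc2a4, the liver and red-cell pyruvate kinase gene Pklr, the liver glycogen synthase gene Gys2, the muscle phosphorylase gene Pygm and the glucose-forming genes Pck1, Fbp1 and G6pc. No level of these genes could be read at this background.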
